A study of Mus musculus with 5 samples.

Results

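The 34 genes described here are an interferon-response module of the mouse retina, out of 33696 genes in the count matrices. They were chosen by name from what is known of the pathway and not by a cut on a measured value. Earlier results of these data were known at that time, so the choice was not blind to them. The module holds 4 transcription factors (*Irf1*, *Irf7*, *Irf9* and *Stat2*), 2 nucleic acid sensors (*Ifih1* and *Zbp1*), 16 antiviral effectors and regulators, 5 guanylate-binding proteins, 5 immunity-related GTPases and 2 chemokines. Their unique molecular identifiers (UMIs, each standing for a captured transcript molecule) were counted in single cells sorted from adult retinas, and their levels were compared between cell types and between 2 viral treatments.

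The mice were *Glast-CreERT2*; *Rosa26-Ai65* animals on a *C57BL/6J* background, 12 to 20 weeks old, with the sexes pooled, and all of them received tamoxifen. Each eye received an intravitreal ShH10 adeno-associated virus (AAV) whose *Gfap* promoter drove FlpO together with another protein. That protein was either the red fluorescent mKate2 (control, 16 retinas pooled) or YAP5SA (21 retinas pooled). YAP5SA is a constitutively active form of the transcriptional coactivator YAP. The paper gives the control virus a higher titre than the *Yap5SA* virus at the same injected volume, so viral dose and transgene cannot be told apart here. The Ai65 reporter makes tdTomato only where Cre, here under *Glast*, and Flp have both acted, so the label was aimed at infected Müller glia (MG), the radial glia that span the retina. The tdTomato+ cells were sorted 56 days after injection. By that day the paper no longer detected the tagged YAP5SA protein by staining or blot, and proliferation had stopped. The treatment comparison is thus of cells after transient YAP5SA expression. Cells were captured with a 10x Genomics 3′ kit into 2 *mKate2* AAV and 3 *Yap5SA* AAV libraries. The first pair of *Yap5SA* AAV replicates, 1 and 2, had 1361 barcodes in common (99.8% of the smaller library, against at most 0.218% for any other pair), so they were counted as 1 sample and replicate 2 was left out. The remaining libraries hold 13132765 to 50938304 UMIs each. The source does not say whether the replicates came from separate pools of retinas, so a p-value here measures the spread between these libraries, which may be technical.

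Interferons are secreted when cells sense foreign or misplaced nucleic acid, or, for interferon-γ, mostly by T and natural killer cells. Type I interferon signals through IFNAR1 and IFNAR2 to a complex that holds STAT2 and IRF9 and binds the interferon-stimulated response element upstream of antiviral genes. Interferon-γ signals through IFNGR1 and IFNGR2 to factors that bind the gamma-activated sequence and induce guanylate-binding proteins, immunity-related GTPases, *Irf1* and *Cxcl9*. Many genes respond to both, and microglia, the resident macrophages of the retina, are a known source of type I interferon.

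The upstream sequences of several members are shown first, since they are what the name of the module refers to. Within 250 bases upstream to 50 bases downstream of the annotated start (GENCODE M39 canonical transcript, GRCm39), 21 of the 34 members (61.8%) hold 2 copies of GAAA with any 2 bases between them, on either strand (the double GAAA below), against 822 of 21431 protein-coding promoters (3.84%). The core TTCNNNGAA, which reads the same on both strands, was in 11 members (32.4%) and in 1893 promoters (8.83%). Both were in 8 members (23.5%) and in 121 promoters (0.565%), with the matches overlapping in 2 members. A match is only a description of the letters in this window, and the 10 members with neither (*Ifi44*, *Irf7*, *Irf9*, *Gbp3*, *Gbp6*, *Igtp*, *Cxcl9*, *Oasl2*, *Xaf1* and *Parp14*) may have it elsewhere. The stretches below stand for the 3 patterns in the counts: *Isg15*, *Bst2* and *Cxcl10* were higher in microglia-like cells, *Ifit1*, *Ifit3*, *Ifit3b* and *Irgm2* were higher in MG, and *Tgtp2* and *Irf1* had wide ranges between libraries. Each is on the strand of its gene, 5′ to 3′, with 25 bases on either side of the match in capitals. The capitals mark the double GAAA or, where it lies on the opposite strand, its complement of 2 TTTC copies, and for *Irf1* TTCNNNGAA.
*Isg15*, chr4:156285307-156285366, minus strand, 38 bases upstream of the start: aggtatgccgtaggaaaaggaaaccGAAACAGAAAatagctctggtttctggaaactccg
*Bst2*, chr8:71990206-71990265, minus strand, 126 bases upstream: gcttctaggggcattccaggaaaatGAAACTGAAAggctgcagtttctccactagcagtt
*Cxcl10*, chr5:92496927-92496986, minus strand, 213 bases upstream: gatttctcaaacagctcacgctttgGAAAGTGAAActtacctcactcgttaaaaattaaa
*Ifit1*, chr19:34618179-34618238, plus strand, 67 bases upstream: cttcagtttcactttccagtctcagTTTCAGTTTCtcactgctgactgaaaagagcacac
*Ifit3*, chr19:34560782-34560841, plus strand, 92 bases upstream: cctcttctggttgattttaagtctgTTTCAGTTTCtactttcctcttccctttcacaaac
*Ifit3b*, chr19:34585178-34585237, plus strand, 125 bases upstream: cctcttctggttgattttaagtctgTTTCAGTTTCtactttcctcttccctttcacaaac
*Irgm2*, chr11:58090323-58090382, plus strand, 96 bases upstream: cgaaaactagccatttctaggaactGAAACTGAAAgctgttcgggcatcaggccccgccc
*Tgtp2*, chr11:48955075-48955134, minus strand, 78 bases upstream: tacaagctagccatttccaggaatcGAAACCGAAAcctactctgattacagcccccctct
*Irf1*, chr11:53660726-53660784, plus strand, 90 bases upstream: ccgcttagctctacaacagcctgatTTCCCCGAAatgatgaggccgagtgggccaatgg

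The 60 bases shown for *Ifit3* and *Ifit3b*, a tandem pair on chromosome 19, are the same letters. The double GAAA was in 10 of the 15 members higher in microglia-like cells, in 5 of the 8 higher in MG and in 6 of the 11 called in neither direction, so the match was found in each of these groups. Copies also limit what the counts can resolve. In the last 500 transcript bases, which a 3′ kit reads, all 411 windows of 90 bases in *Tgtp1* match *Tgtp2* and the reverse, and 410 of the 411 in *Gbp6* (99.8%) match *Gbp10* or *Gm43302*. *Irf9* shares 88 windows (21.4%) with other transcripts, *Igtp* and *Irgm2* overlap on the same strand, and *Irf9* overlaps *Rnf31*, so the counts of these genes are uncertain.

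MG were taken as cells with at least 1000 UMIs, at most 15% mitochondrial UMIs and at least 0.5% of UMIs from 5 MG genes (*Glul*, *Rlbp1*, *Slc1a3*, *Clu* and *Aqp4*). By this rule *mKate2* AAV replicate 1 held 1498 MG, replicate 2 held 2898, *Yap5SA* AAV replicate 1 held 803 and replicate 3 held 1341; values below are in that order unless they are named. All 12 MG markers were found in each of the 4, at a summed 24978 to 27002 CPM (UMIs of a gene per 1000000 UMIs of the cell type). The 12 include the 5 genes of the rule, so this level was partly set by the rule and is not a check of it. All kept cells were clustered without the interferon genes, and clusters were named from markers. Cells that passed the MG rule counted as MG whatever their cluster, and the others were typed by their cluster. Of the MG, 65.6, 86.6, 73.1 and 85.7% lay in clusters named MG. In *mKate2* AAV replicate 1, 160 of the 185 cells in the cluster named rod passed the MG rule and were counted as MG. Microglia- and macrophage-like cells (33, 923, 127 and 67, called microglia-like below) were in every library, and rod-like cells (25, 533, none and 399) in all but *Yap5SA* AAV replicate 1. In *mKate2* AAV replicate 2, 413 of the 923 microglia-like cells lay in a cluster led by immunoglobulin genes (*Ighg2c*, *Igkc* and *Jchain*) beside the macrophage genes *Lyz2* and *Ccl8*, with the 12 microglial markers at 36831 CPM against 34008 CPM in the rest. The summed level and the counts of calls for microglia-like cells were computed with and without that cluster, the rest with it. The 12 microglial markers stood at 73.4 to 347 CPM in MG against 21369 to 35235 CPM in microglia-like cells. CPM values come from 3′ counting, where a transcript gives the same number of molecules whatever its length, so genes are compared on that scale without a length correction.

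The summed level of the 34 members was 1368, 2544, 2524 and 1273 CPM in MG, a mean of 1927 ± 702 (SD, n = 4). It was 2689, 2910, 3659 and 2228 CPM in microglia-like cells (2872 ± 597, n = 4), higher than in MG of the same library in each of the 4. Without the immunoglobulin-led cluster the second value was 2714 CPM, with that cluster itself at 3263. MG of *mKate2* AAV replicate 2 and *Yap5SA* AAV replicate 1 lay above MG of the other libraries, 1 from each treatment, so the treatments overlapped. Rod-like cells stood at 334 CPM in *mKate2* AAV replicate 2 and at 108 in *Yap5SA* AAV replicate 3. In *mKate2* AAV replicate 1 they stood at 1326 CPM, from 55 member UMIs in 25 cells with a median of 1295 UMIs (exact Poisson 95% interval 999 to 1726; intervals here cover counting error only). Cone-like cells held 180 and 84.2 CPM, bipolar-like cells 310 and 89.5 CPM and amacrine-like cells 321 and 70.1 CPM in *mKate2* AAV replicate 2 and *Yap5SA* AAV replicate 3. Cells named T and NK-like held 2362 CPM (51 cells of *mKate2* AAV replicate 2) and 2937 CPM (39 cells of *Yap5SA* AAV replicate 1), although the latter also carried microglial markers at 17023 CPM. The neuron types were thus each below MG and microglia-like cells of their own library, although the interval of the rod-like cells of *mKate2* AAV replicate 1 includes the 1368 CPM of its MG.

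**Figure D1:**
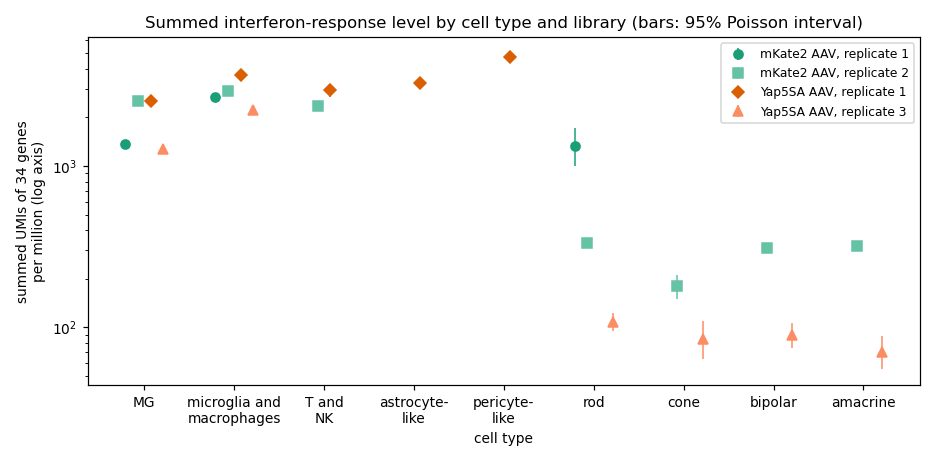
Summed CPM of the 34 interferon-response genes (vertical axis, log scale) in each cell type (horizontal axis), with 1 point per library and bars for the exact Poisson 95% interval. MG lie between 1273 and 2544 CPM and microglia-like cells between 2228 and 3659 CPM, while the neuron types lie at 334 CPM or below except the 25 rod-like cells of *mKate2* AAV replicate 1 at 1326 CPM.

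As a measure of microglial RNA carried over into MG droplets, the microglial markers in MG were 0.378, 0.992, 0.542 and 0.208% of their level in microglia-like cells, and the same fraction of the microglial member level would make up 0.743, 1.13, 0.785 and 0.365% of the summed MG level. For *Cxcl9* that fraction came to 77% of its MG level in *mKate2* AAV replicate 2 (4.23 of 5.49 CPM), whereas in *Yap5SA* AAV replicate 1 it came to 1.56 CPM where MG had no UMI, so the fraction overstates some genes. For *Tgtp2* in *mKate2* AAV replicate 1 it came to 22.4%. Rod markers were seen in 20.5, 36, 7.22 and 69.8% of MG, pigment epithelium markers in 21.9, 9.39, 24.8 and 23.0% and astrocyte markers in 47.8, 52.2, 59.7 and 26.6%. Rod markers were thus most frequent in *Yap5SA* AAV replicate 3, whose summed MG level was the lowest. Pigment epithelium markers were least frequent in *mKate2* AAV replicate 2, whose summed level was the highest. Astrocyte markers were most frequent in *mKate2* AAV replicate 2 and *Yap5SA* AAV replicate 1, which had the higher summed levels. These shares were not thinned, and the median MG held 6194.5, 2918.5, 10778 and 2920 UMIs. The part of any of these markers in the member levels was not tested.

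By role, the 16 antiviral genes made up 63.6, 49.6, 52.4 and 52.1% of the summed level in MG and 50.6, 51.3, 50.9 and 53.4% in microglia-like cells. Guanylate-binding proteins took 14.8, 21.3, 16.2 and 15.3% in MG and 6.27, 11.0, 7.13 and 9.20% in microglia-like cells. Immunity-related GTPases took 4.64, 11.2, 12.6 and 7.34% in MG and 3.18, 3.20, 2.89 and 2.55% in microglia-like cells. The 2 chemokines ran the other way, with 1.63, 4.06, 5.94 and 4.54% in MG and 14.2, 18.9, 17.1 and 11.8% in microglia-like cells. In each library both GTPase families thus took the larger share in MG and the chemokines the larger share in microglia-like cells.

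Against MG of the same library, microglia-like cells had 15 of the 34 members called higher and 8 called lower, with 11 not called (edgeR quasi-likelihood test on summed counts, library as a block, Benjamini-Hochberg adjusted p under 0.05 over 16243 genes). Of all genes tested, 21.4% were higher and 28.2% lower, so 49.6% differed between these cell types. The median member log2 difference was 0.56 against −0.26 over all genes. With library totals in place of TMM scaling the median over all genes moved to −0.65 and 11 members were higher and 9 lower, while over all genes 2744 were higher and 6171 lower. Without the immunoglobulin-led cluster 14 members were higher and 9 lower. No member called here changed sign under any alternative. Of the 15 higher, 11 stayed called under every alternative (all but *Gbp3*, *Gbp5*, *Isg15* and *Usp18*), and of the 8 lower, *Gbp6*, *Oasl2*, *Ifit3* and *Ifit3b* did.

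**Figure D2:**
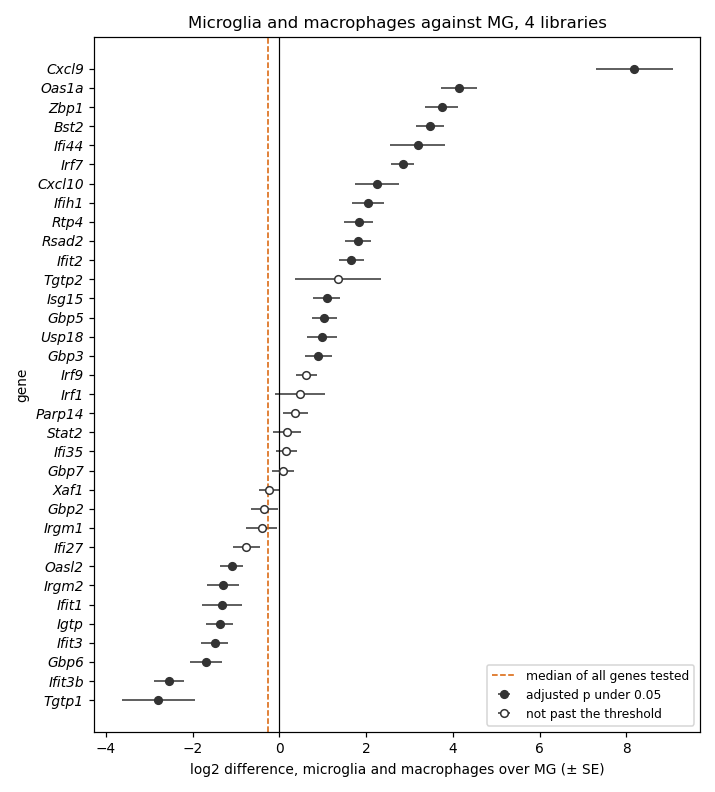
Log2 difference of microglia-like cells over MG (horizontal axis) for each of the 34 members (vertical axis, ordered by the difference), with bars for its standard error, filled points for an adjusted p under 0.05 and a dashed line at the median of all genes tested. *Cxcl9* at 8.18 lies farthest to the right and *Tgtp1* at −2.79 farthest to the left.

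Among the transcription factors, *Irf7*, which amplifies type I interferon production, was the member called. It stood at 14.8, 26.8, 18.4 and 9.45 CPM in MG and at 103, 119, 94.0 and 56.8 CPM in microglia-like cells (log2 difference 2.84, SE 0.26, adjusted p = 5.08e-06). The groups did not overlap. *Irf1*, an immediate target of interferon-γ, stood at 45.4, 151, 95.6 and 135 CPM in MG and at 218, 61.9, 196 and 42.1 CPM in microglia-like cells, higher in microglia-like cells in both replicates 1 and higher in MG in the others (0.48, SE 0.58, adjusted p = 0.513). *Irf1* was thus not ordered by cell type. *Irf9* (33.7 to 59.5 CPM in MG, 43.5 to 64.5 in microglia-like cells) and *Stat2* (34.2 to 72.6 and 16.5 to 93.1 CPM), whose proteins bind DNA together, gave 0.63 (SE 0.25, adjusted p = 0.0568) and 0.17 (SE 0.33, adjusted p = 0.691).

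Both sensors were higher in microglia-like cells. *Ifih1*, which encodes the double-stranded RNA receptor MDA5, stood at 64.6, 69.2, 64.1 and 48.4 CPM in MG and at 197, 85.8, 271 and 304 CPM in microglia-like cells (2.05, SE 0.36, adjusted p = 0.000736). *Zbp1*, a sensor of left-handed nucleic acid, stood at 2.69, 19.1, 14.9 and 2.30 CPM in MG and at 61.9, 122, 87.6 and 42.1 CPM in microglia-like cells (3.74, SE 0.39, adjusted p = 1.34e-05). Relative to its mean, *Zbp1* varied more between MG libraries (9.74 ± 8.54 CPM, SD, n = 4) than *Ifih1* (61.6 ± 9.09 CPM).

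Of the 16 antiviral genes, 8 were higher in microglia-like cells, 4 lower and 4 not called. *Bst2*, encoding tetherin, which holds budding virus at the cell surface, stood at 56.0, 143, 109 and 41.6 CPM in MG and at 568, 794, 716 and 601 CPM in microglia-like cells (3.47, SE 0.32, adjusted p = 5.93e-06). *Oas1a*, an oligoadenylate synthetase, had 1.43, 3.55, 5.19 and 0.638 CPM in MG and 32.0, 30.9, 50.7 and 20.1 CPM in microglia-like cells (4.14, SE 0.40, adjusted p = 8.64e-06). *Ifi44* was the lowest antiviral member in MG, at 0.673, 3.28, 1.56 and 0.383 CPM, and stood at 15, 8.46, 12.3 and 3.66 CPM in microglia-like cells (3.19, SE 0.64, adjusted p = 0.00162). These genes did not overlap between the cell types. *Rsad2*, encoding viperin, which makes a chain-terminating nucleotide, had 8.84, 28.5, 21.8 and 11.5 CPM in MG and 27.8, 42.8, 66 and 47.6 CPM in microglia-like cells (1.81, SE 0.31, adjusted p = 0.00055). *Rtp4* had 13.1, 16.7, 31.7 and 8.68 CPM in MG and 72.6, 35.6, 53.2 and 27.5 CPM in microglia-like cells (1.83, SE 0.33, adjusted p = 0.000846). *Isg15*, a ubiquitin-like modifier, stood at 83.4, 195, 194 and 66.3 CPM in MG and at 261, 170.4, 337 and 101 CPM in microglia-like cells (1.09, SE 0.31, adjusted p = 0.0122). *Isg15* was higher in microglia-like cells in 3 of the 4 libraries, and its call was lost in 4 of the alternatives. *Usp18*, the protease that removes ISG15, had 8.81 to 22 CPM in MG and 15 to 29.3 CPM in microglia-like cells (0.99, SE 0.35, adjusted p = 0.0381).

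The *Ifit* genes, whose proteins bind viral RNA, divided within the family. *Ifit3* stood at 103, 152, 124 and 90.9 CPM in MG and at 12.8, 50.2, 48.3 and 22 CPM in microglia-like cells (−1.49, SE 0.30, adjusted p = 0.00185). *Ifit3b* stood at 49.4, 65.8, 55.7 and 46.3 CPM in MG and at 2.14, 8.82, 10.3 and 5.49 CPM in microglia-like cells (−2.54, SE 0.34, adjusted p = 0.000101). *Ifit1* stood at 25.1, 52.3, 48.6 and 21.6 CPM in MG and at 4.27, 6.84, 40.4 and 7.32 CPM in microglia-like cells (−1.32, SE 0.46, adjusted p = 0.0332). *Ifit3* and *Ifit3b* were thus higher in MG with no overlap, whereas *Ifit1* in microglia-like cells of *Yap5SA* AAV replicate 1 lay within the MG range. *Ifit2* ran the other way, with 24.7, 19.6, 28.4 and 18.1 CPM in MG and 34.2, 39.9, 99.0 and 58.6 CPM in microglia-like cells (1.66, SE 0.30, adjusted p = 0.000799). *Oasl2*, an oligoadenylate synthetase-like protein, was also lower in microglia-like cells, at 25.6, 44.1, 56.6 and 25.6 CPM against 105, 124, 123 and 68.4 CPM in MG (−1.10, SE 0.26, adjusted p = 0.00482). The 4 not called included *Ifi27*, the highest member in MG on average (121, 208, 206 and 107 CPM, against 55.5, 83.7, 55.6 and 95.2 in microglia-like cells, −0.76, SE 0.31, adjusted p = 0.0617). *Xaf1* stood at 119, 127, 182 and 94.0 CPM in MG and at 109, 82.0, 109 and 47.6 CPM in microglia-like cells, below MG in each library on this scale. *Parp14* (36.1 to 95.9 CPM in MG) and *Ifi35* (43.1 to 73.9 CPM) gave 0.37 and 0.16.

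The guanylate-binding proteins, GTPases that attack the vacuoles of intracellular microbes, held 2 members higher and 1 lower. *Gbp2* stood at 44.9, 193, 129 and 35.0 CPM in MG and at 29.9, 99.9, 49.2 and 40.3 CPM in microglia-like cells (−0.35, SE 0.30, adjusted p = 0.37). *Gbp6* stood at 59.9, 125, 103 and 57.7 CPM in MG and at 4.27, 20.2, 35.9 and 25.6 CPM in microglia-like cells (−1.69, SE 0.37, adjusted p = 0.00273), with the limit that its 3′ end is shared. *Gbp7* stood at 59.5, 112, 87.5 and 65.0 CPM in MG and at 40.6, 96.1, 56.6 and 73.2 CPM in microglia-like cells. *Gbp6* was higher in MG with no overlap, and *Gbp2* and *Gbp7* overlapped. *Gbp3* (25.0 to 86.3 CPM in MG and 49.4 to 72.0 in microglia-like cells, 0.90, SE 0.31, adjusted p = 0.0306) and *Gbp5* (12.0 to 34.2 and 16.5 to 57.1 CPM, 1.04, SE 0.29, adjusted p = 0.0106) were called higher in microglia-like cells with overlapping ranges.

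The immunity-related GTPases, interferon-inducible proteins that act on vacuoles and autophagy, were the role with no member called higher in microglia-like cells. *Igtp* (also called Irgm3) stood at 24.0, 73.9, 86.1 and 22.1 CPM in MG and at 4.27, 26.1, 20.7 and 9.16 CPM in microglia-like cells (−1.38, SE 0.31, adjusted p = 0.00368). *Irgm2* stood at 13.9, 26.6, 60.2 and 15.6 CPM in MG and at 8.54, 4.68, 22.2 and 5.49 CPM in microglia-like cells (−1.29, SE 0.38, adjusted p = 0.0142). *Irgm1* stood at 24.8, 128, 74.8 and 51.6 CPM in MG and at 40.6, 38.3, 41.9 and 25.6 CPM in microglia-like cells (−0.41, SE 0.36, adjusted p = 0.37). *Tgtp1* and *Tgtp2* had, beside *Cxcl9*, the widest ranges between MG libraries relative to their means (16.7 ± 18.1 and 22.8 ± 28.3 CPM, SD, n = 4). *Tgtp1* stood at 0.253, 27.3, 36.6 and 2.55 CPM in MG and at 2.14, 3.42, 0.985 and 1.83 CPM in microglia-like cells (−2.79, SE 0.84, adjusted p = 0.017). *Tgtp2* stood at 0.505, 28.6, 60.5 and 1.66 CPM in MG and at 29.9, 20.7, 20.2 and 14.6 CPM in microglia-like cells (1.35, SE 1.00, adjusted p = 0.285). *Tgtp2* thus stayed between 14.6 and 29.9 CPM in microglia-like cells, while in MG it was under 2 CPM in a library of each treatment and above 28 CPM in the others. The *Tgtp1* call was lost without *mKate2* AAV replicate 2 (−3.10) and without *Yap5SA* AAV replicate 1 (−1.82), and reads of the pair cannot be told apart at the 3′ end.

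The chemokines CXCL9 and CXCL10 attract T cells through CXCR3. *Cxcl10* stood at 22.3, 97.9, 149.9 and 57.8 CPM in MG and at 378, 123, 336 and 256 CPM in microglia-like cells (2.25, SE 0.52, adjusted p = 0.00387). *Cxcl9* stood at 5.49 CPM in MG of *mKate2* AAV replicate 2 and had no UMI in MG of the other libraries, where 3 counts would give 0.253, 0.312 and 0.383 CPM. In microglia-like cells *Cxcl9* stood at 4.27, 427, 288 and 7.32 CPM (8.18, SE 0.88, adjusted p = 1.79e-05, a fold that depends on the prior count because of the zeros). *Cxcl9* in microglia-like cells was high in the same 2 libraries in which the summed MG level was high, and low in the others.

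The genes around the module were read from lists of the same pathway. Of 15 receptor and JAK-STAT genes, 10 were higher in microglia-like cells than in MG and none lower. *Ifnar1* stood at 38.7, 25.2, 33.5 and 29.4 CPM in MG and at 132, 46.6, 145 and 36.6 CPM in microglia-like cells (1.70, adjusted p = 0.0011). *Ifnar2* stood at 51.1 to 85.0 CPM in MG and at 229 to 260.0 CPM in microglia-like cells (2.28, adjusted p = 4.46e-05). The interferon-γ receptor genes *Ifngr1* (30.7 to 66.8 CPM in MG, 145 to 196 in microglia-like cells) and *Ifngr2* (18.4 to 31.3 and 97.0 to 157 CPM) gave 2.41 and 2.92. The interferon-λ receptor gene *Ifnlr1* was at 0.383 to 2.91 CPM in MG and was not called, and its partner *Il10rb* (16.7 to 22.3 and 100.4 to 130.0 CPM) gave 2.87. All 4 receptor chains for type I and type II interferon were thus detected in MG, below their levels in microglia-like cells.

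Of 16 genes of nucleic acid sensing, 11 were higher and 3 lower in microglia-like cells. The 3 lower were *Tlr3* (37.0 to 56.2 CPM in MG, 12.8 to 30.5 in microglia-like cells, −0.89, adjusted p = 0.026), *Rigi* (43.0 to 83.2 and 21.6 to 31.1 CPM, −0.75, adjusted p = 0.0424) and *Irf3* (27.7 to 42.3 and 9.16 to 18.2 CPM, −0.87, adjusted p = 0.0355). *Sting1* (0.766 to 4.67 CPM in MG, 47.6 to 72.0 in microglia-like cells) and *Cgas* (0 to 1.04 and 14.4 to 36.3 CPM), which sense cytosolic DNA, were among those higher. Of 10 MHC class I genes 9 were higher in microglia-like cells, with *B2m* at 466, 1229, 1228 and 409 CPM in MG. Of 10 interferon genes only *Ifnb1* passed the filter on low counts. *Ifnb1* stood at 23.5, 1.62, 61.1 and 33.0 CPM in microglia-like cells, from 11, 9, 124 and 18 UMIs in 6.06, 0.217, 3.94 and 2.99% of the cells, and at 0.168, 0, 0 and 0 CPM in MG. *Ifng* stood at 127 CPM in T and NK-like cells of *mKate2* AAV replicate 2 and at 21.8 CPM in those of *Yap5SA* AAV replicate 1, with at most 0.0538 CPM in MG. No cluster was named T and NK in the other libraries, and the part of these cells in the member levels was not tested.

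Against MG of the same library, rod-like cells were lower for most members. *Rsad2* stood at 0, 0.180 and 0 CPM in rod-like cells (*mKate2* AAV replicate 1, its replicate 2, then *Yap5SA* AAV replicate 3; −7.53, SE 0.88, adjusted p = 1.43e-05). *Ifit2* stood at 0, 0.180 and 0.461 CPM (−6.23, SE 0.74, adjusted p = 1.64e-05), and *Ifit3b* at 0, 1.80 and 0.922 CPM (−5.46, SE 0.53, adjusted p = 6.62e-06). *Cxcl10* stood at 0, 0.360 and 2.31 CPM and *Gbp3* at 24.1, 1.26 and 0 CPM, where 1 UMI in the first of these libraries equals about 24.1 CPM. These genes were near the floor in rod-like cells of the 2 deeper libraries. Of the 31 members that passed the filter, which they could pass through MG alone, 28 were called lower, beside 28.7% of 14812 genes (42.6% differed in either direction); the count is therefore not support by itself. Without that filter 31 of 34 were lower, beside 20.9% of 24351 genes. Without *mKate2* AAV replicate 1 the count was again 28, and without either of the other libraries it was 12.

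The 3 members tested and not called in rod-like cells were transcription factors, while *Irf1*, the other one, was lower (−3.12, SE 0.62, adjusted p = 0.00083). *Irf9* stood at 48.2, 53.4 and 18.0 CPM in rod-like cells (−0.35, SE 0.39, adjusted p = 0.514). *Stat2* stood at 24.1, 56.5 and 26.3 CPM (−0.12, SE 0.38, adjusted p = 0.837) and *Irf7* at 24.1, 17.6 and 17.5 CPM (0.00, SE 0.48, adjusted p = 0.995). These levels lay near those of MG. *Bst2* at 74.8 CPM and *Irf1* at 43.7 CPM in rod-like cells of *mKate2* AAV replicate 2 were the other members above 20 CPM in that library. The other neuron types of *mKate2* AAV replicate 2 had *Stat2* at 57.1 CPM in amacrine-like, 66 in bipolar-like and 48.9 in cone-like cells, *Irf1* at 51.7, 31.1 and 15.9 CPM and *Irf9* at 23.7, 34.4 and 21.2 CPM.

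The comparison of the treatments asks whether the module differed between retinas given *Yap5SA* AAV and *mKate2* AAV, which also differed in viral dose. In MG, 0 of the 33 members tested were called between *Yap5SA* and *mKate2* AAV, as were 0 of all 15285 genes (0%), by edgeR and by DESeq2. At an unadjusted p under 0.05 edgeR had 30 genes (0.196%) and DESeq2 52, with no member among either. The member log2 differences ran from −1.19 to 0.86, 10 of them above 0, with standard errors of 0.26 to 2.02 and a median of −0.21 against −0.03 over all genes. The highest MG level lay in *mKate2* AAV replicate 2 or *Yap5SA* AAV replicate 1 for 34 of 34 members. The lowest lay in the other libraries for 33, with *Cxcl9* at 0 in 3. Only for *Ifih1* did the levels of the 2 treatments lie apart, and it was not called either (−0.36, SE 0.26, edgeR adjusted p = 0.9999). Neither order was counted over all genes, so these counts describe the libraries and are not read as a result about the members.

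**Figure D3:**
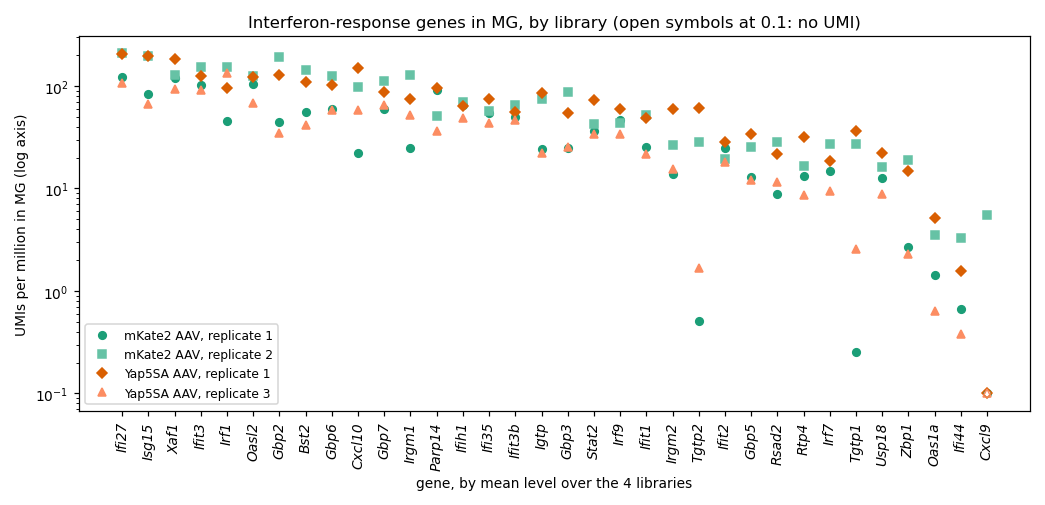
CPM in MG (vertical axis, log scale) of each of the 34 members (horizontal axis, ordered by mean level), with 1 point per library and open points at 0.1 where a library had no UMI. For every member the highest point belongs to *mKate2* AAV replicate 2 or *Yap5SA* AAV replicate 1, an order that was not counted over all genes. The spread runs from 48.4 to 69.2 CPM for *Ifih1* to 0.253 to 36.6 CPM for *Tgtp1*.

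Libraries also differ in the Cell Ranger version named in the matrix headers, 8.0.0 for both replicates 1 and 9.0.1 for *mKate2* AAV replicate 2 and *Yap5SA* AAV replicate 3. Within the first version the summed MG level was 1368 CPM under *mKate2* and 2524 CPM under *Yap5SA* AAV, and within the second 2544 and 1273 CPM, so the direction was opposite. With the version as a block, 0 genes were called in MG. Leaving out *mKate2* AAV replicate 2 moved the median member difference to 0.54, and leaving out *Yap5SA* AAV replicate 3 moved it to 0.21. It was −0.61 without *mKate2* AAV replicate 1 and −0.82 without *Yap5SA* AAV replicate 1. The direction thus depended on which library was left out.

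In microglia-like cells 0 of 32 members and 0 of 9081 genes (0%) were called between the treatments by edgeR, while an unadjusted p fell under 0.05 for 108 genes (1.19%) and DESeq2 called 1 gene. Member differences ran from −0.77 to 1.20 with a median of −0.06 against −0.01 over all genes. Without *Yap5SA* AAV replicate 1, *Cxcl9* was the member called (−4.99, SE 1.075, adjusted p = 0.00135), among 34 of 7194 genes (0.473%), and under other settings its value ran up to 5.09. The difference between the cell types in the treatment effect was called for 0 of 34 members and for 1 of 16243 genes (0.00616%), *Tnfaip6*, named after its value was seen. *Cxcl9* had the highest member value there (6.49, SE 1.33, adjusted p = 0.15), and was called without *mKate2* AAV replicate 1 (6.59, adjusted p = 0.000663), among 162 of 16959 genes (0.955%), and also without the immunoglobulin-led cluster (6.93, adjusted p = 0.00331). Without *mKate2* AAV replicate 2 the member called was *Tgtp2* (−5.85, SE 1.15, adjusted p = 0.000431), among 47 of 16111 genes (0.292%), and its value reached 0.97 under another setting.

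Counted per cell, the module was not spread evenly. Cells were thinned to 2000 UMIs so that depth was equal, which left out 308, 870, 93 and 411 shallower MG. UMIs of at least 3 members were then in 31.3% of 1190, 55.9% of 2028, 54.4% of 710 and 25.7% of 930 MG (exact binomial 95% intervals 28.6 to 34, 53.7 to 58.0, 50.6 to 58.1 and 22.9 to 28.6), against 67.4, 65.7, 84.2 and 42.4% before thinning. The intervals of *mKate2* AAV replicate 2 and *Yap5SA* AAV replicate 1 overlapped each other and lay above those of the other libraries. In microglia-like cells the shares were 58.6% of 29, 52.6% of 756, 68.6% of 121 and 32.7% of 55. In rod-like cells they were 3.25% of 523 and 0.806% of 372 in *mKate2* AAV replicate 2 and *Yap5SA* AAV replicate 3, in bipolar-like cells 5.15% of 291 and 0 of 74, and in amacrine-like cells 3.32% of 241 and 0 of 57. At equal depth the shares in these neuron types lay below those in MG of the same library, and the part of free RNA in any of them was not tested.

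**Figure D4:**
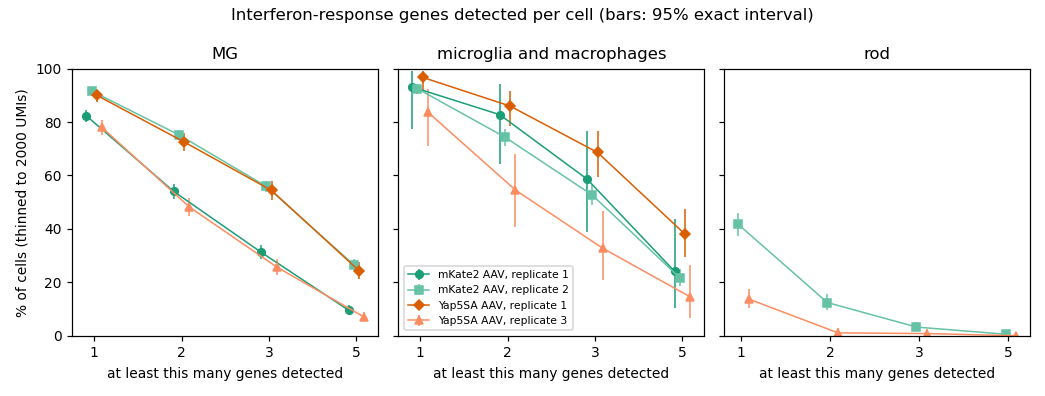
Share of MG, microglia-like and rod-like cells (panels) with UMIs of at least 1, 2, 3 or 5 members (horizontal axis) after thinning each cell to 2000 UMIs (vertical axis, percent), with 1 line per library and exact binomial 95% intervals. At 3 members MG lie at 25.7 to 55.9% and rod-like cells at 0.806 and 3.25%.

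Single members gave smaller shares. *Isg15* was found in 8.49, 24.0, 20.8 and 8.17% of thinned MG, against 0.38 and 0.27% of rod-like cells in *mKate2* AAV replicate 2 and *Yap5SA* AAV replicate 3. *Bst2* was found in 6.97, 22.1, 14.2 and 8.06% of MG, 62.1, 65.3, 57.9 and 63.6% of microglia-like cells and 14 and 1.61% of rod-like cells. The share with *Bst2* in rod-like cells of *mKate2* AAV replicate 2 was thus much closer to that in MG than the share with *Isg15* was. At least 1 member was found in 82.4, 91.6, 90 and 78% of MG, and at least 5 in 9.58, 26.6, 24.4 and 6.99%.

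Member UMIs were spread unevenly over MG. The 10% of MG with the most member UMIs, thinned to equal depth, held 38.4, 38.3, 39.9 and 39.9% of them. These cells were chosen on the same UMIs, so a share above 10% was built in, and no baseline is given. The share was 25.5 to 40.3% in microglia-like cells. In rod-like cells it was 48.4% in *mKate2* AAV replicate 2 and 79.7% in *Yap5SA* AAV replicate 3. Rod-like cells there held a mean of 0.707 and 0.172 thinned member UMIs, with none in 58.3 and 86.3% of them. So few UMIs make the share high by themselves, so it does not compare rod-like cells with MG. The variance over the mean was 9.35, 9.18, 8.11 and 5.63 across MG, and 2.50 and 1.36 across these rod-like cells at their lower means. In *mKate2* AAV replicate 1 it was 23.4 for MG in clusters that were not named, where a cell held up to 28 members, and 2.53 for MG in clusters named MG, with up to 11. An unnamed cluster in that library, with *Isg15* and the astrocyte marker *Gfap* among its leading genes although the members were kept out of the clustering, held 131 cells that passed the MG rule, at 3296 CPM of members. Its nearest marker list was that of astrocytes, with 2 markers detected, and these 131 cells had MG markers at 23556 CPM and astrocyte markers at 219 CPM. The 7 named MG clusters of the library stood at 941 to 1757 CPM of members, 20949 to 32314 CPM of MG markers and 95.3 to 169 CPM of astrocyte markers. Named MG clusters ran from 1291 (25 MG) to 3373 CPM in *mKate2* AAV replicate 2, from 799 to 4257 in *Yap5SA* AAV replicate 1 and from 925 to 1560 in *Yap5SA* AAV replicate 3. In *Yap5SA* AAV replicate 1 the range between clusters was thus wider than that between the 4 libraries.

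Whether the members were high in the same cells was read by ranking MG on the thinned UMIs of the other members, leaving the gene in question out, and taking its share of UMIs in the top 10% of cells. A gene unrelated to the ranking would have about 10% there, and other genes with at least 50 UMIs had medians of 9.88, 10, 9.78 and 9.93% and 95th percentiles of 16.1, 16.0, 16.4 and 15.9%. Members had medians of 22.8, 35.0, 32.1 and 23.2%, with 15 of 20, 28 of 31, 22 of 24 and 15 of 17 above that percentile. *Ifit1* had 42.4, 53.1, 62.0 and 65.5% of its UMIs in these cells and *Isg15* 56.3, 43.7, 42.5 and 53.2%. *Tgtp1* had 47.1% in *mKate2* AAV replicate 2 and 75.0% in *Yap5SA* AAV replicate 1. Its ranking still held *Tgtp2*, whose 3′ reads cannot be told from its own, so these shares are not independent of the ranking. *Ifi27*, the highest member, stayed below the 95th percentile in every library, with 12.5, 14.4, 14.9 and 15.2%. *Irf1* had 6.72, 14.6, 29.9 and 17.6%, so it was above it in the *Yap5SA* AAV libraries alone. MG markers had 9.69, 10.1, 10.4 and 10.8% in these cells, microglial markers 7.14, 18.2, 12.2 and 8.62% and rod markers 4.13, 6.18, 5.88 and 8.95%. Microglial markers were thus above the 95th percentile in *mKate2* AAV replicate 2 and below it in the others, and their part in the result was not tested. Among MHC class I genes, 2 of 8, 5 of 9, 4 of 8 and 2 of 8 were above the 95th percentile. The ranking took all cells of the MG rule, whatever their cluster. In *mKate2* AAV replicate 1 the top 10% was 119 cells, and the unnamed cluster of 131 MG at 3296 CPM was ranked with the rest. The part of that cluster in the top 10% was not counted, and no shares were computed for MG in named clusters alone.

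**Figure D5:**
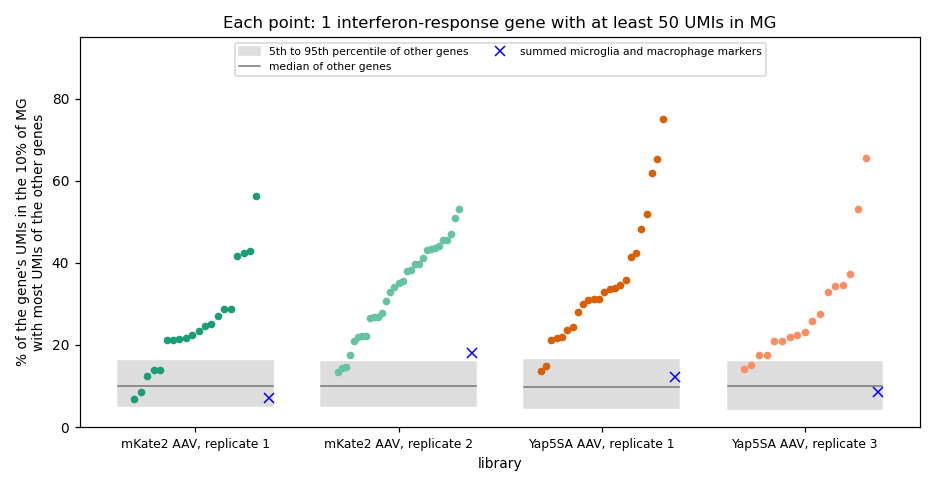
Percent of each gene's UMIs held by the 10% of MG that rank highest on the other members (vertical axis), by library (horizontal axis), with 1 point per member, a cross for the summed microglial markers and grey bands for the 5th to 95th percentile of other genes. The upper edge of the bands lies at 15.9 to 16.4%, and 15 of 20, 28 of 31, 22 of 24 and 15 of 17 members lie above it.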

How the data were processed

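The authors made the matrices with Cell Ranger from 10x 3′ v3.1 reads (8.0.0 and GRCm39 in the submitters' processing notes; 8.0.0 or 9.0.1 in the file headers). The deposited values are raw UMI counts per gene and barcode, and 0 sample columns were left unused. The members and lists were chosen with earlier results of these data known. Cells kept had at least 1000 UMIs and at most 15% mitochondrial UMIs; no doublets were removed, so mixed droplets remain.

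MG needed 0.5% of UMIs from 5 marker genes. MG within 0.1 points above that limit numbered 47, 72, 38 and 53, and 35, 80, 33 and 45 cells lay as close below it. All cells kept, MG among them, were clustered per library in scanpy 1.11.5 (Leiden, igraph 0.11.9) on 3000 variable genes without the interferon lists. The settings were 30 components, 15 neighbours and resolution 1. Clusters were named from markers, and cells outside the MG rule were typed by their cluster. A type needed 10 cells in a library.

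Counts were summed per library and type and tested with edgeR 4.0.16 in R 4.3.3 (quasi-likelihood, TMM, filterByExpr, Benjamini-Hochberg 0.05), a procedure tested on simulated data. DESeq2 1.42.0, other scalings, filters, definitions of MG and left-out libraries were alternatives. Level sums, cell shares and rankings have no test. Libraries hold 13132765 to 50938304 UMIs, so 3 counts equal 0.161 to 0.383 CPM in MG. Named were all members, with every library's value for those called or among the 12 highest in MG; receptors and called genes of other lists (1 planned gene is not reported here); others were named after their values were seen. Promoter matches and shared ends used GENCODE M39 with pysam 0.24.0 and BLAST 2.17.0; protein sequences were not used here. Figures and sums used Python 3.11.15, numpy 2.4.6, pandas 2.3.3, scipy 1.17.1 and matplotlib 3.10.9.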

Additional observations from a re-analysis of the deposited data

Results flagged for a closer look

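Some groups of cells that enter no comparison had high summed levels of the 34 members, and those flagged were all in *Yap5SA* AAV replicate 1. The rule took unnamed cells or failed barcodes above both control libraries, and all astrocyte-like and pericyte-like cells. Cone-, bipolar- and amacrine-like cells also enter no comparison and stood at 70.1 to 321 CPM. T and NK-like cells, which the rule did not cover, stood at 2362 CPM in *mKate2* AAV replicate 2 and at 2937 CPM in *Yap5SA* AAV replicate 1. The 56 cells of clusters that were not named stood at 4362 CPM (exact Poisson 95% interval 3989 to 4761), above the 1693 and 1023 CPM of such cells in the *mKate2* AAV libraries. Those of *Yap5SA* AAV replicate 3 stood lower, at 501 CPM, and those of *Yap5SA* AAV replicate 2, which holds the same cells as replicate 1 clustered anew, at 2452 CPM. The 41 astrocyte-like cells stood at 3265 CPM (3068 to 3471) and the 37 pericyte-like cells at 4768 CPM (4533 to 5012), and neither type was named in an *mKate2* AAV library, so no control level was computed under these names. The astrocyte-like cluster also held 69 cells that passed the MG rule and were counted there, at 3363 CPM, and an unnamed cluster of *mKate2* AAV replicate 1 that was nearest to astrocytes by markers held 131 such cells at 3296 CPM. Among the immunity-related GTPases, *Tgtp1* stood at 137 CPM in astrocyte-like and 467 CPM in pericyte-like cells and *Tgtp2* at 239 and 387 CPM, against 36.6 and 60.5 CPM in MG of the library. *Irgm2* stood at 98.8 and 149 CPM against 60.2 CPM in MG, while *Igtp* stood at 44.6 and 92.8 CPM against 86.1 CPM. *Bst2* stood at 128 and 480 CPM, *Gbp2* at 121 and 334 CPM and *Irgm1* at 124 and 300 CPM. These are single libraries with no replicate of the type, and their difference from MG was not tested.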

How the results depend on the processing

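In the following, the count of genes or members called was computed again under each alternative, and no member called between cell types changed sign. In the treatment comparisons *Cxcl9* in microglia-like cells ran from −4.99 to 5.09 and *Tgtp2* in the interaction from −5.85 to 0.97. In MG the treatment comparison stayed at 0 genes under every alternative. In microglia-like cells it gave 1 gene with DESeq2, 39 without the filter on low counts, 5 with the Cell Ranger version as a block and 0 to 68 with a library left out (13 without *mKate2* AAV replicate 1, 34 without *Yap5SA* AAV replicate 1 and 68 without its replicate 3; members 0 to 1, *Cxcl9*). For microglia-like cells over MG, leaving out a library gave 6534 to 7102 genes and 18 to 22 members. For rod-like cells over MG, DESeq2 gave 3791 genes, and leaving out a library gave 2251 to 8119 genes and 12 to 28 members (2251 genes without *mKate2* AAV replicate 2 and 3569 without *Yap5SA* AAV replicate 3), with fewer samples in each fit. The interaction of cell type and AAV gave 0 genes with DESeq2, with RLE size factors, with library totals (an alternative chosen after seeing the data), with MG in named clusters and with a marker share of 1%. It gave 4 genes without the filter, with at least 2000 UMIs, with MG that lack microglial UMIs and without the immunoglobulin-led cluster (also chosen after seeing the data), and 1 to 162 with a library left out (162 without *mKate2* AAV replicate 1, 47 without its replicate 2 and 13 without *Yap5SA* AAV replicate 1). A member was called in it without the filter (1, *Cxcl9*), without the immunoglobulin-led cluster (1, *Cxcl9*) and in 0 to 1 cases per left-out library. The mean share of MG with at least 3 members was 41.8%, and it was 62.5% for at least 2 members, 16.9% for at least 5, 18.6% after thinning to 1000 UMIs, 64.9% with no thinning and 37.1 to 47.2% with a library left out. The mean summed level ran from 1722 to 2146 CPM in MG, 2609 to 3086 in microglia-like cells and 221 to 830 in rod-like cells when a library was left out, and the median member difference between treatments from −0.82 to 0.54 in MG and −0.62 to 0.37 in microglia-like cells. *Yap5SA* AAV replicate 2 in place of replicate 1 left the counts within 1.5 times. The cause of these shifts was not tested. No paired analysis was possible because the 4 libraries share only replicate number 1; the block on Cell Ranger version groups libraries by software and pairs no samples. Depth limits members below about 1 CPM in MG and every member in the 25 rod-like cells of *mKate2* AAV replicate 1.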

Other observations

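In bands of UMIs per cell the summed MG level ran from 1340 to 1481 CPM in *mKate2* AAV replicate 1, from 2344 to 2776 in *mKate2* AAV replicate 2, from 2092 to 3124 in *Yap5SA* AAV replicate 1 (highest in the band of 1000 to 2000 UMIs) and from 1089 to 1316 in *Yap5SA* AAV replicate 3. Barcodes that did not pass the limits on UMIs and mitochondrial share held 830, 1357, 1402 and 748 CPM, below MG of their own library in each case. T and NK-like cells of *mKate2* AAV replicate 2 had *Irf1* at 299.5 CPM, *Bst2* at 204 CPM, *Gbp6* at 193 CPM and *Isg15* at 163 CPM.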
